A study of Homo sapiens with 6 samples.

Results

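The regions described here are 37798 stretches of chromatin away from promoters that carried a peak of trimethylated lysine 27 on histone H3 (H3K27me3) in control cells and no peak in cells given an shRNA against E2F1 (shE2F1). The level of E2F1 after the knockdown cannot be read from peak lists. They were selected on the 2 peak lists themselves. A peak of the control shRNA list was a member when no peak of the shE2F1 list overlapped it by 1 bp and its midpoint lay farther than 1000 bp from every annotated transcription start site (TSS). The control shRNA list held 123957 peaks, of which 113342 were distal by this rule, and the shE2F1 list held 135683. Of the distal peaks 33.3% were members, against 32.5% without an shE2F1 overlap among all control shRNA peaks, promoters included. The remaining 75544 distal peaks, which had an overlap, are called kept. The mirror group, 51371 distal shE2F1 peaks with no control shRNA overlap (42.6% of the distal peaks of that list), is called gained. "Lost" therefore means absent from a second peak list and not a measured fall of the mark, and this absence is what the rule used.

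The mark was mapped by ChIP-seq, which sequences the chromatin fragments pulled down by an antibody, in MDA-MB-231, a long-established line from a human breast cancer of the triple-negative type. For H3K27me3, cells were transduced for 24 h with a lentivirus carrying control shRNA or shE2F1 and then selected with 2 µg/ml puromycin for 72 h. E2F1 itself was mapped in cells left untreated and in cells exposed for 72 h to DMSO or to 1 µM GSK126, which blocks the methyltransferase EZH2. Each of these 5 groups had 1 library, so no difference between lists has a replicate check, no test between conditions was made, and all 95% intervals are exact Clopper-Pearson intervals that cover counting error only.

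H3K27me3 is laid down by Polycomb repressive complex 2 (PRC2), whose catalytic subunit is EZH2, and it marks silenced developmental genes in compact domains as well as long stretches of intergenic and intronic chromatin at a lower level. E2F1 is a transcription factor that drives genes of the cell cycle from promoters with GC-rich sites. Peak callers join neighbouring enriched bases into broad regions, so a diffuse domain near the calling threshold can be reported in fragments.

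The sequences of 4 members are shown because they are the extremes on which the description turns. The first pair holds the highest −log10 q values of all members, and the remaining 2 are among those overlapped by E2F1 peaks in the most lists with the highest E2F1 fold. All were read from the plus strand of hg38, and capitals mark CpG dinucleotides.
Intergenic, upstream of WSB1, chr17:26619969-26620144: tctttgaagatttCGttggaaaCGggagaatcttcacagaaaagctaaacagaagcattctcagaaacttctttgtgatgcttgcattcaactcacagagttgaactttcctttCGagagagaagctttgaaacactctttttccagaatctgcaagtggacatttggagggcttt
Intergenic, upstream of WSB1, chr17:26603782-26603970: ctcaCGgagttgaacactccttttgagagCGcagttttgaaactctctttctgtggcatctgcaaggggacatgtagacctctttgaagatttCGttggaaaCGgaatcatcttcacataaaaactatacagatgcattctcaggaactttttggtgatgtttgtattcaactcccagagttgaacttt
Intron of ESRRG, chr1:216601118-216601291: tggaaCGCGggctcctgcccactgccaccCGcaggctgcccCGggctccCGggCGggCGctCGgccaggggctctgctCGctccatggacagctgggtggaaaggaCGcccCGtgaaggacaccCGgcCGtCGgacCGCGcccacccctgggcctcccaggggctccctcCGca
Intergenic, upstream of SLC25A4, chr4:185128464-185128763: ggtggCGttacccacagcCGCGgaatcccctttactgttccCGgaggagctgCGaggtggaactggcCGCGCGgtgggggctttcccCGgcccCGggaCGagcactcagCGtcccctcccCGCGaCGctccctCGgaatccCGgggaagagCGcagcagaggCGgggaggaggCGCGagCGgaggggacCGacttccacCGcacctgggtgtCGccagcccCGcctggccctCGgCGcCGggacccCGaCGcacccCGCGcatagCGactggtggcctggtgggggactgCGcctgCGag

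The ESRRG and SLC25A4 windows held 17 and 36 CpGs and had a GC content of 76.4% and 74.0%. Neither these nor the chromosome 17 sequences contained the E2F letters described further on. The sequences on chromosome 17 stand apart in another way, since their central 32 bases occurred 828 and 1215 times in the assembly, on either strand, whereas the central 32 bases of the 2 members with E2F1 peaks occurred once. The chromosome 17 pair lay 265836 and 282010 bp from an assembly gap. The nearest protein-coding TSS, that of WSB1, was 674019 and 690200 bp from them.

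Members were short. Their width had a median of 457 bp (95% interval 451 to 461), with 10% at or below 209 bp and 90% at or below 1047 bp. Kept distal regions had a median of 949 bp and a 90th percentile of 3104 bp. Gained regions resembled the members, at a median of 538 bp. The members' widths had 2 maxima, one between 247 and 273 bp, where 5.93% of members lay, and one between 672 and 743 bp, with a trough of 4.06% between 369 and 408 bp. Of the members 30.7% were narrower than 300 bp and 88.8% narrower than 1000 bp, whereas 52.2% of kept regions were narrower than 1000 bp. The members summed to 21.3 Mb, which was 16.4% of the length of the distal control shRNA regions although they were 33.3% of their number.

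**Figure D1:**
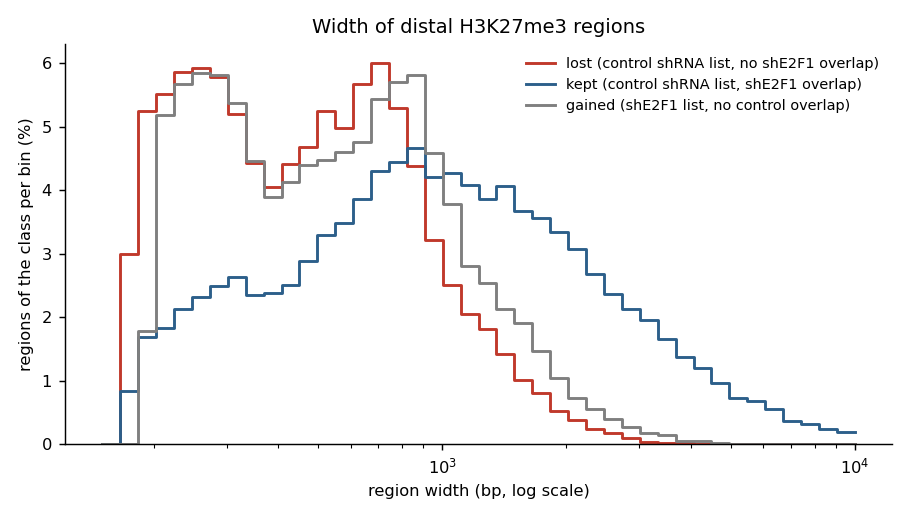
Distribution of region width in base pairs (log scale) for lost, kept and gained distal H3K27me3 regions, as the percent of each class in bins of equal log width. Lost and gained regions share a peak between 247 and 273 bp, each has another between 672 and 907 bp, and kept regions extend to several kilobases.

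The share of distal control shRNA regions that were lost fell with every step in width. It was 62.4% (61.0 to 63.9) of the 4507 regions narrower than 200 bp, 44.5% of those from 400 to 600 bp, 16.0% of those from 1000 to 2000 bp and 2.81% of those from 2000 to 5000 bp. None of the 2570 distal regions of 5000 bp or more was lost, which allows a share of up to 0.117% when 0 is read as up to 3 regions, with an exact upper bound of 0.143%. A wide region has more bases with which to meet a peak of the other list. With every control region reduced to 200 bp around its midpoint, a choice made after the data were seen, 62.2% of the narrowest class and 14.3% (12.9 to 15.7) of regions of 5000 bp or more were lost, and 45.0% over all widths.

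The 3 widest members reached 4654 bp in an intron of GLYATL3 (chr6:49506951-49511604), 4071 bp in an intergenic stretch of chromosome 8 nearest to PAG1 among protein-coding genes, and 4064 bp inside PRUNE2, where the non-coding gene PCA3 also lies (chr9:76774499-76778562). Their fold enrichments were 3.63, 3.53 and 3.30. The GLYATL3 region was 2504 bp from the nearest shE2F1 peak, and the other pair were 157 and 798 bp from one.

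Members were also weakly enriched as a group. Fold, the ratio of the authors' fragment pileup to the background averaged over a region, had a median of 3.08 in members, 3.21 in kept regions and 2.85 in gained regions. Whether the background was estimated from the input library or from the ChIP library itself is not given in the sources used here. The −log10 of the q-value had a median of 1.52 in members, and 15.5% (15.1 to 15.8) of members reached 2, the level of a q-value of 0.01, compared with 30.4% of kept regions. Just 512 members reached 3 and 9 reached 5. The share lost was 58.1% of distal control regions with a −log10 q from 1 to 1.2, 29.7% of those from 1.5 to 2 and 20.3% of those from 2 to 2.5. It did not fall further, at 20.0% from 2.5 to 3, 21.1% from 3 to 4 and 19.7% from 4 to 5. Among regions narrower than 400 bp the share lost went from 60.6% below 1.5 to 38.2% (35.1 to 41.3) at 3 or more. The mirror share in the shE2F1 list took a similar course at low values and stood at 38.2% (29.1 to 47.9) of 110 regions at 5 or more, where 9 of 71 control regions (12.7%, 5.96 to 22.7) were lost.

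**Figure D2:**
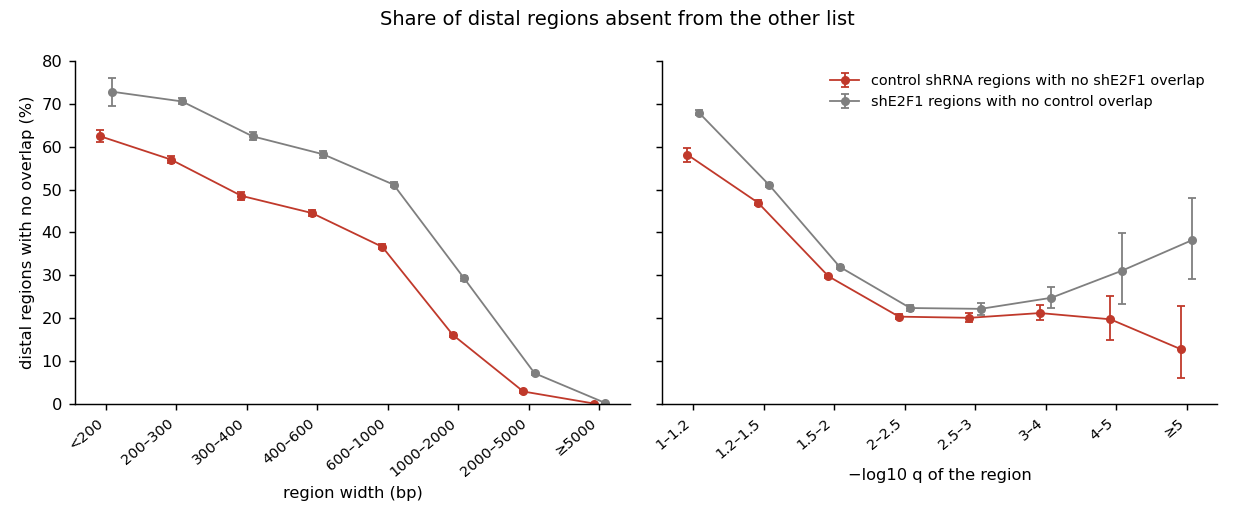
Percent of distal regions of each list with no overlap in the other list, by region width in bp (left) and by −log10 q (right), with exact 95% intervals. The shares fall from 62.4% (control shRNA) and 72.9% (shE2F1) in the narrowest class to 0 and 0.145% at 5000 bp or more, and along −log10 q the control shRNA list levels off near 20%.

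The number of fragments under a narrow region could be solved in part of the list. For regions shorter than 300 bp, a whole number of fragments and a background that together return the deposited fold and p-value were found for 1510 of 21884 control shRNA peaks (6.90%), against 0.146% after the fold was shifted by 0.3%. Among the solved regions, 927 members and 466 kept distal regions both had a median of 5 overlapping fragments. The share with 5 or fewer was 71.2% of those members, 70.6% of those kept regions and 70.3% of 934 solved gained regions. At the most frequent background, 5 was the lowest number found in either library. The most frequent background was 1.02 fragments in the control shRNA library and 1.27 in the shE2F1 library. The shE2F1 background was thus the higher of the pair, and its part in the absence of the members was not tested. The number of fragments under the other members could not be solved.

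The number of lost regions depended on the thresholds of both lists. When the control list was limited to −log10 q values of 2 or more and the shE2F1 list was left whole, 5840 distal regions were lost, 20.3% of their number. When both lists were held to 2, 20389 were lost, 70.8% of the distal control regions left. With a peak within 1000 bp counted as an overlap, 25025 regions (22.1%) stayed lost. When a region was kept only if shE2F1 peaks covered at least 50% of it, 57050 (50.3%) were lost.

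At the edge of the overlap rule, 23 members touched an shE2F1 peak with a gap of 0 bp, and 32 kept distal regions overlapped one by 1 bp. Gaps under 100 bp were found in 1469 members (3.89%), and overlaps under 100 bp in 3984 kept regions (5.27%). An example of a touching member was the 295-bp region in an intron of GYPC (chr2:126665493-126665787, fold 2.75). An example of a region kept by 1 bp was the 253-bp peak upstream of CAND2 (chr3:12786424-12786676, fold 3.23). At the edge of the TSS rule, 2 members had their midpoint at 1001 bp, 1 of them inside MCF2L, and 3 lost regions at 1000 bp were outside it, 1 of them inside FRMD1.

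Most members lay close to some peak of the shE2F1 list, whether or not that peak met a control shRNA peak. The distance from a member to the nearest shE2F1 peak had a median of 1641 bp (1615 to 1665), with 90% of members within 10949 bp. An shE2F1 peak was found within 1000 bp of 33.8% of members, within 5000 bp of 78.8%, within 10000 bp of 89.0% and within 100000 bp of 99.2%. Of the members 62.2% (61.7 to 62.7) lay between shE2F1 peaks that were both within 10000 bp. Gained regions were farther from the control shRNA list, at a median of 2613 bp and with 79.3% within 10000 bp. That comparison runs against lists of different length, 123957 and 135683 peaks.

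**Figure D3:**
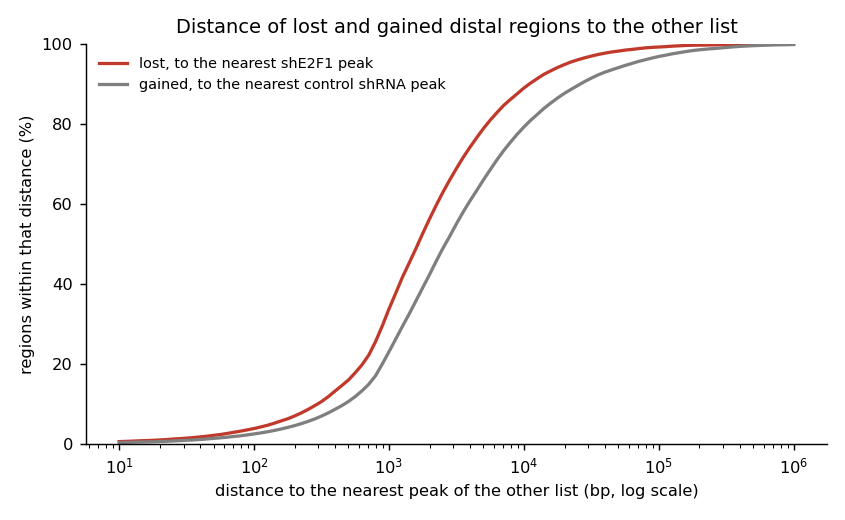
Cumulative percent of lost regions within a given distance in bp (log scale) of the nearest shE2F1 peak, and of gained regions within that distance of the nearest control shRNA peak. The curve of lost regions is to the left throughout the middle range, with 78.8% against 66.0% within 5000 bp.

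The neighbours were themselves of both kinds. A control shRNA region that did overlap the shE2F1 list lay within 5000 bp of 55.9% of members and within 1000 bp of 13.1%. A gained shE2F1 region lay within 5000 bp of 51.3% of members and within 1000 bp of 19.5%. The nearest shE2F1 peak had a median width of 748 bp, compared with 811 bp over the whole list, and in 46.8% of members it overlapped another control shRNA region. Another control shRNA peak of any kind was at a median distance of 2218 bp from members and 1215 bp from kept regions.

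Members mostly stood singly among other peaks of either list. Of the members 60.8% stood alone, with a kept or promoter control peak or an shE2F1 peak, gained ones included, between them and the next member on each side. Any peak of either list that was not a member ended a run. The share standing alone is not given here for kept or gained regions, so it cannot be called particular to members. Runs of 2 consecutive members held 24.8%, runs of 3 held 9.20%, and the 41 runs of 6 or more held 0.706%. The longest run had 9 members over 20.5 kb in RBMS3, which encodes an RNA-binding protein (chr3:28694831-28715364). Its members had a median width of 334 bp, and the highest −log10 q among them was 1.91. Runs of 8 members were found on chr1:170768455-170796693, downstream of the homeobox gene PRRX1, on chr2:179310394-179426795, between SESTD1 and ZNF385B, and on chr5:175054974-175081201. They spanned 28.2, 116 and 26.2 kb, and none of these 3 overlapped a protein-coding gene. PRRX1 encodes a transcription factor of mesenchymal cells.

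Some members were far from any shE2F1 peak. None, gained or not, was found within 10000 bp of 4155 members. A control shRNA region that overlapped the shE2F1 list lay within 10000 bp of 70.8% of members. The 3 farthest were all on chromosome 4. The first, chr4:33255841-33256255, lay 1381897 bp from the nearest shE2F1 peak in a gene-poor stretch beyond PCDH7. The others, chr4:125892885-125893110 and chr4:126025755-126025933, lay 1183308 and 1050485 bp away, on the far side of FAT4, a large atypical cadherin. Their folds were 2.96, 3.07 and 3.65 and their −log10 q values 1.25, 1.38 and 2.09, the third fold being above the 90th percentile of the members (3.59). The nearest other control shRNA peak was 2534261 bp from the first.

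The strongest members were few, and only the first pair stood far above the others in −log10 q. After the chromosome 17 pair, with −log10 q values of 50.3 and 35.8, the next was 5.91. The first of the pair had a fold of 4.62, above the 99th percentile of the members (4.27), and the second a fold of 2.73, below their 10th percentile (2.79). The nearest shE2F1 peak was 55042 and 71216 bp away. The third was an intergenic region of 246 bp in the MHC class I region upstream of HLA-C (chr6:31292368-31292613), with the highest fold of all members, 5.90. It was followed by chr5:86878371-86878549, with a fold of 5.61, which lay 260285 bp downstream of the COX7C TSS. Next was chr1:216721812-216722130 in ESRRG, which encodes an orphan nuclear receptor, with a fold of 5.60. The last 3 were chr3:70361396-70361624 in the long non-coding RNA gene SAMMSON, chr14:23206110-23206441 in RNF212B and chr1:165502662-165503007 in LRRC52-AS1, with folds of 5.29, 5.68 and 5.52. Of these 6 regions 5 had an shE2F1 peak between 689 and 1858 bp away, and the SAMMSON region had one at 10744 bp. Their widths were 179 to 346 bp. The central 32 bases of the RNF212B region occurred 10 times in the assembly, and those of the other 5 once. The midpoints of the RNF212B, LRRC52-AS1 and chr1:216721812-216722130 regions lay 1049, 1165 and 1361 bp from the nearest TSS of any gene, close to the cut of the TSS rule. Those of the regions near HLA-C and COX7C and in SAMMSON lay 3527, 6421 and 28770 bp from one. A TSS within 2000 bp was found for 5.52% of all members.

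Repeated sequence was somewhat more frequent in members than in kept regions. The central 32 bases occurred once in the assembly in 83.0% of members, 87.0% of kept and 85.5% of gained regions. They occurred 10 times or more in 11.3% of members, 8.42% of kept and 9.49% of gained regions. Among members at a −log10 q of 3 or more, 17.8% had 10 copies or more, against 13.9% of kept and 13.4% of gained regions at that level. Short reads from such sequence can be placed at several positions, and the part of this in the loss was not tested.

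By position, members resembled the other distal classes. Introns held 51.2% of them, intergenic sequence 45.8%, untranslated or non-coding exons 2.27% and coding exons 0.804%. A gene of any type covered the midpoint of 54.2% (53.7 to 54.7) of members, 55.3% of kept and 54.6% of gained regions, and a protein-coding gene covered 37.1%, 39.6% and 37.3%. Gene bodies, promoter-proximal parts included, made up 60.8% of the assembled sequence. The share lost was 33.9% (33.5 to 34.3) of intergenic and 32.9% (32.5 to 33.3) of genic distal regions, which is close to the share over all distal regions. It was 30.3% of distal regions with a TSS within 2000 bp and 43.6% (42.1 to 45.2) of those more than 100000 bp from one. At promoters 23.7% (22.9 to 24.5) of control shRNA peaks had no shE2F1 overlap.

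The base composition of members differed little from that of kept regions. In the 300 bp around the midpoint the median GC content was 46.3% in members, 46.7% in kept and 46.0% in gained regions, above the 40.9% of the assembly. The share lost was 39.7% of regions with a GC content under 35% and 25.5% of those at 60% or more. The letters of an E2F site (TTCCCGC with its variant TTCGCGC, and likewise TTGCCGC with its variant TTGGCGC), on either strand and counted once for a window even where matches overlapped, were found in 648 members (1.71%, 1.59 to 1.85). They were in 1.90% of kept and 1.87% of gained windows. GAGAGAGA, a GA repeat, was present in 4.33% of members and 4.51% of kept regions. CACACACA, a CA repeat, was present in 4.08% and 4.22%.

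Members were spread over all 23 chromosomes examined at a density that varied less than that of kept regions and about as much as that of gained ones. The density of members ran from 8.48 per Mb of assembled sequence on chromosome 21 to 15.2 per Mb on chromosome 20, a 1.79-fold range, with a median of 13.2. Kept distal regions varied 4.91-fold, from 12.0 per Mb on chromosome X to 59.0 on chromosome 20, and gained regions 1.90-fold, from 12.4 to 23.6 per Mb. The share lost therefore ran opposite to the number of distal control regions called per Mb. It was highest on chromosome X, with 1814 of 3675 regions (49.4%, 47.7 to 51.0), and next on chromosomes 13 (43.1%), 4 (42.7%) and 8 (41.6%). It was lowest on chromosomes 19 (659 of 3233 regions) and 20 (969 of 4744), at 20.4% in both. Across the 23 chromosomes, which share the same 2 libraries, the share lost and the density of distal control regions had a Spearman correlation of -0.91 and a Pearson correlation of -0.88, given as a description. The density holds the lost regions as well as the kept ones, and the share is built from the same counts, so they are not independent.

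**Figure D4:**
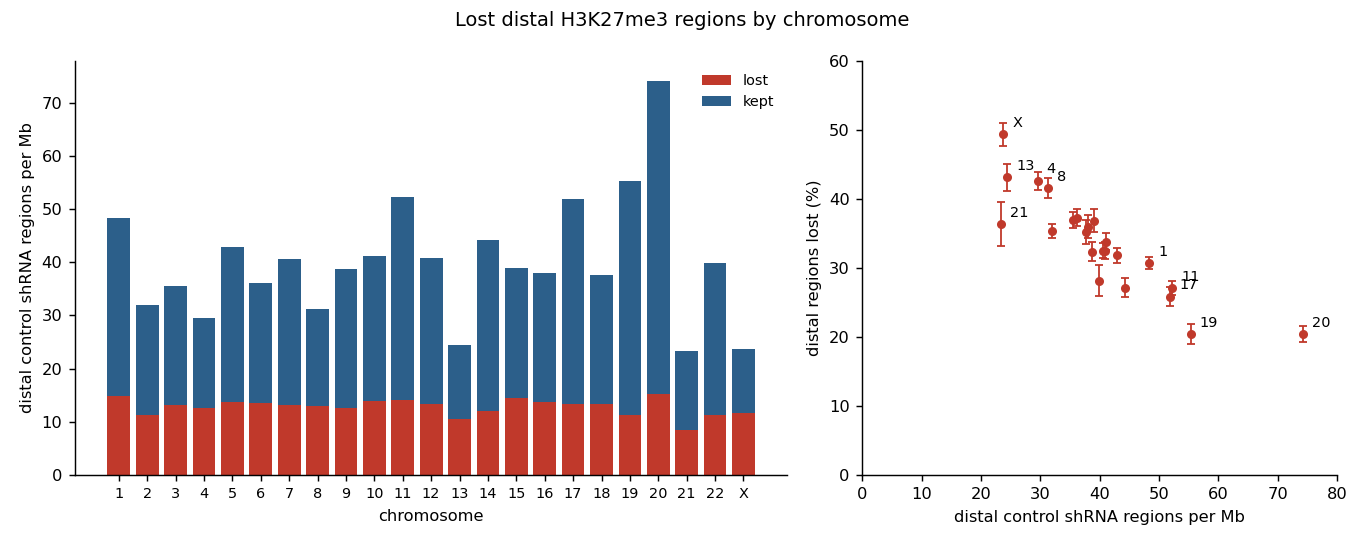
Left, distal control shRNA regions per Mb of assembled sequence on each chromosome, split into lost and kept. Right, percent of distal regions lost (exact 95% interval) against that density, 1 point per chromosome with some named; lost regions stay between 8.48 and 15.2 per Mb while the share lost runs from 20.4% to 49.4%.

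The median distance from a member to the nearest shE2F1 peak was shortest on chromosomes 22 (981 bp) and 19 (1037 bp) and longest on chromosome X (2353 bp). More regions were gained than lost on every chromosome, and the log2 ratio of gained to lost ran from 0.16 on chromosome 6 to 0.92 on chromosome 22. The ratio was 0.85 on chromosome 19 and 0.79 on chromosome 16.

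At 1 Mb resolution members were found in 2457 of 2676 bins with a distal region in either list (91.8%), with a median of 12 per bin, 10th and 90th percentiles of 1 and 31, and a highest number of 65. In bins with 1 to 19 distal control regions 58.7% were lost, and in bins with 100 or more 23.9%. The number of members per bin had a Spearman correlation of 0.81 with that of kept regions and 0.86 with that of gained regions over the 2676 bins, as a description. The bin with 65 members, on chromosome 16 from 13000001 to 14000000, held 66 gained regions. In the bin on chromosome 13 from 94000001 to 95000000, which holds the end of GPC6, the pigment gene DCT and SOX21, all 26 distal control regions were lost, while 20 gained ones were called there. In the bin on chromosome 20 from 36000001 to 37000000 none of 34 was lost. These bins were chosen after their values were seen.

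Within genes, members were most numerous in very long ones. Of 19962 protein-coding genes, 4659 held a distal control region in the body and so could hold a member. At least 1 member was found in 3373, 5 or more in 932 and 10 or more in 367. PDE4D, which encodes a cyclic AMP phosphodiesterase, held 63 members among 132 distal control regions (47.7%, 39.0 to 56.6). MAGI2, a synaptic scaffold gene, held 53 of 136, and NRXN3, a presynaptic adhesion gene, 53 of 105. RARB, a retinoic acid receptor gene, held 48 of 104, and ZFHX3, a zinc finger homeobox gene, 47 of 145. TENM2, an adhesion gene of the teneurin family, held 46 of 266 (17.3%, 12.9 to 22.4), the lowest share of these 10. The others were LRMDA (45 of 100), DAB1 (44 of 121), the sialyltransferase gene ST6GALNAC3 (43 of 91) and the potassium channel-interacting gene KCNIP4 (42 of 63). These genes were 560 to 1698 kb long, and they held from 2.84 to 7.68 members per 100 kb, ST6GALNAC3 the most. Over all protein-coding gene bodies the density was lower, at 10.8 members per Mb, but the 10 genes were chosen for their number of members. Most of these genes also held gained regions in number, 106 in NRXN3 and 70 in PDE4D.

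Among the 584 protein-coding genes with at least 20 distal control regions in the body, the median share lost was 29.2%, and more than 50% were lost in 80 genes. The share was highest in CPNE4, a copine gene, with 23 of 28 lost (82.1%, 63.1 to 93.9). It was followed by DISC1 (19 of 24), AGBL4 (26 of 36), SETBP1 (17 of 24) and the galactosyltransferase gene B3GALT1 (22 of 32). The median width of the distal control regions in these 5 genes was 355 to 566 bp. No region was lost in 7 genes. The first 5 of these by position were PAX7, a homeobox gene of muscle and neural crest precursors (0 of 28), PDZD2 (0 of 27), GRM4, a metabotropic glutamate receptor gene (0 of 27), PKNOX2, a TALE homeobox gene (0 of 34), and DLGAP4, a postsynaptic scaffold gene (0 of 25). With so few regions, 0 of 34 still allows an upper 95% bound of 10.3%. The median width of the distal control regions was 1060 to 5678 bp in those 5 genes, and the widest region in each measured from 7931 to 26161 bp.

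**Figure D5:**
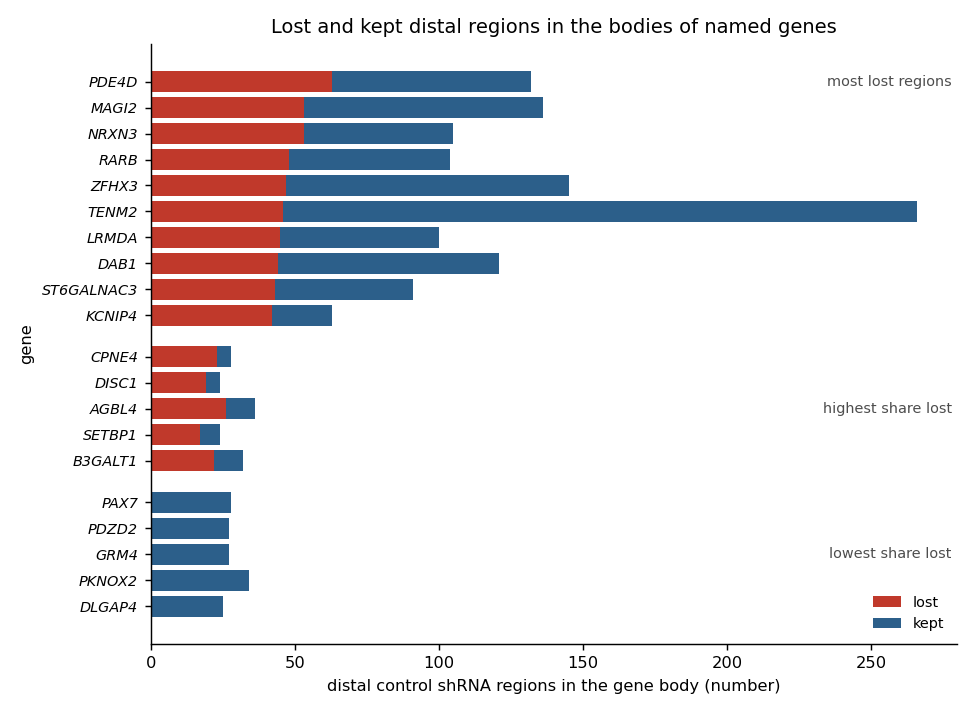
Number of distal control shRNA regions in the bodies of 20 named protein-coding genes, split into lost and kept: the 10 with the most lost regions, the 5 with the highest and 5 with the lowest share lost. PDE4D holds 63 lost of 132, CPNE4 23 of 28, and PAX7 none of 28.

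Gene groups were compared with the 33.3% of all distal control regions, and their members were few in several. Of 25 usual E2F target genes, such as CCNE1, MCM2 and RRM2, none had a distal control region in its body, so none could lose one. Of 23 genes of luminal breast identity, 7 held a distal region and 6 a member, and 36 of 70 regions were lost (51.4%, 39.2 to 63.6). ESR1, the estrogen receptor gene, accounted for 22 of these among 32 regions, and PGR, the progesterone receptor gene, for 5 of 14. Of 22 mesenchymal genes, 3 held a distal region, and 19 of 38 regions were lost (50.0%, 33.4 to 66.6). Among these MMP2, which encodes a matrix metalloproteinase, held 7 of 12 and the transcription factor gene TCF4 7 of 19. The intervals count regions of a few genes as independent, which neighbouring regions in 1 gene are not.

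The 15 long genes of common fragile sites held 212 lost regions among 534 (39.7%), with 41 of 140 in the cadherin gene CDH13. The 25 neuronal adhesion and synapse genes held 356 among 1215 (29.3%, 26.8 to 31.9). The 124 potassium channel and glutamate receptor genes held 402 among 1281 (31.4%, 28.8 to 34.0), with KCNH1 at 26 of 39. The share in the channel and receptor group was thus close to the 33.3% of all distal regions. The share in the neuronal group was somewhat lower, and its interval, which covers counting error only, lay below 33.3%. The olfactory receptor genes held 48 among 231 (20.8%, 15.7 to 26.6). Of these 413 genes, 81 held a distal control region and 35 a member. Zinc finger genes of chromosome 19 held 32 among 107 (29.9%, 21.4 to 39.5), with 15 of 49 in ZNF536, while the share over all of chromosome 19 was 20.4%. Clustered protocadherins held 7 of 19 and HOX genes 2 of 12. The alpha protocadherin genes share their last exons, so PCDHA1 and PCDHA2 counted the same 5 lost regions.

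E2F1 peaks seldom coincided with distal H3K27me3 regions of any class, members included. All of these classes leave out regions with the midpoint within 1000 bp of a TSS. The untreated list of 1056 E2F1 peaks overlapped none of the 37798, which allows a share of up to 0.00794% (exact upper bound 0.00976%). The untreated list also overlapped just 2 of the 75544 kept and 5 of the 51371 gained regions. The DMSO list of 15703 peaks overlapped 271 members (0.717%, 0.634 to 0.807) and the GSK126 list of 14276 peaks overlapped 97 (0.257%, 0.208 to 0.313). Of the members 344 (0.910%) met a peak of any list, against 1.12% of kept and 2.01% of gained regions. In both DMSO and GSK126, 24 members met one. The corresponding shares for DMSO were 0.748% of kept and 1.54% of gained regions, and for GSK126 0.486% and 0.736%. Among regions narrower than 600 bp the DMSO shares were 0.604% of members, 0.774% of kept and 1.32% of gained regions. Viewed from the control list, 32.4% (29.3 to 35.7) of distal regions with a DMSO E2F1 peak were lost, 20.9% (17.3 to 24.9) of those with a GSK126 peak, and 33.4% of those with no E2F1 peak. The E2F1 lists came from cells that carried no shRNA.

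The members described next, 7 of those met by E2F1 peaks of both lists with the highest E2F1 fold, differed in base composition. An overlap of 1 bp was enough for this. The ESRRG region printed above (fold 3.08) lay under E2F1 peaks of fold 5.85 in DMSO and 8.85 in GSK126, and the region upstream of SLC25A4, which encodes the adenine nucleotide translocator of heart and muscle, under peaks of 5.55 and 6.11. Both windows were rich in CpG. The midpoint of the ESRRG region lay 114048 bp from the nearest TSS. That of the SLC25A4 region lay 14652 bp from the SLC25A4 TSS but 1136 bp from the nearest TSS of any gene. The other regions were in GRID1 (5.62 and 4.01), upstream of ACVR2A (4.97 and 4.81), in GALNT14 (4.89 and 4.79), upstream of ARPP21 (3.93 and 4.81) and upstream of NCAM1 (4.78 and 3.61). The TSSs of ACVR2A, ARPP21 and NCAM1 were far off, at 323900, 879537 and 162123 bp. The GC content of the last 5 was 47.0% to 56.3%. The H3K27me3 folds of these 7 lay between 2.78 and 3.08, close to or below the median of the members. The nearest shE2F1 peak was 514 bp from the SLC25A4 region, 204 bp from the ACVR2A region and 74304 bp from the ARPP21 region. The GSK126 peak at the GALNT14 region covered it only from its start at 31042684 to 31042702. At the NCAM1 region the DMSO peak ended at 112799101 and the GSK126 peak began at 112799188, so these E2F1 peaks did not overlap each other.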

How the data were processed

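The authors trimmed reads with cutadapt 4.5, aligned them to GRCh38 with Bowtie2 2.5.2 and used MACS2 2.2.9.1 to call the peaks of each library, with a q-value threshold of 0.01 and, for H3K27me3, the broad option with a cutoff of 0.1. Methods and labels differ on how histone chromatin was cut (micrococcal nuclease or sonication). The deposited lists give for each peak a fold, the ratio of signal to background, with −log10 of its p-value and q-value as computed by the authors. The deposited score was not used. Read totals were not analysed here, so depth was read only from the solved peaks.

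Overlaps, distances and shares were computed with Python 3.11.15, numpy 2.4.6, pandas 2.3.3 and scipy 1.17.1 on chromosomes 1 to 22 and X. All peaks lay within the ends of the hg38 chromosomes. GENCODE release 44 gave 218307 TSSs, and the reference was in upper case, so soft-masked repeats were not analysed here. The interval functions were tested on simulated data. Distances run between nearest edges. Coordinates are 1-based.

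The members and gene lists were chosen with earlier results of these data known. Named regions were the 8 highest by −log10 q, 3 each by fold, width and distance, the longest runs, and 8 with E2F1 peaks in the most lists, 1 of which is not reported here. Named genes were the 10 with the most members, the 5 highest and 5 lowest by share lost among those with at least 20 distal regions, and for each list those with the most members. The alternatives are given in the closing section.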

Additional observations from a re-analysis of the deposited data

How the results depend on the processing

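No paired analysis was possible because each group had 1 library and no result came from a test. Of 66 alternative values, 29 stayed within the 95% interval of the reported value (for the number of regions, within 1.5-fold) and 37 moved. With control shRNA peaks at a −log10 q of at least 2, 5840 regions were lost (20.3%), with a median width of 352 bp, a median distance of 1490 bp to an shE2F1 peak, 54.8% in gene bodies and 0.411% on E2F1 peaks. The share lost was then 38.2% on chromosome X and 8.55% on chromosome 19. With both lists at 2, the values were 20389 regions, 70.8%, 781 bp, 9227 bp, 55.3% and 0.593%. With the shE2F1 list shortened to its strongest peaks, as many as in control shRNA, the share was 35.8%, the width 468 bp and the distance 1881 bp. With an shE2F1 peak within 1000 bp counted as an overlap, 25025 regions (22.1%) were lost, at 437 bp, 2913 bp, 53.7% in gene bodies and 1.03% on E2F1 peaks. With 50% coverage required, 57050 (50.3%) were lost, at 602 bp and 768 bp. Beyond 5000 bp from every TSS the share was 34.0%, the distance 1681 bp, 51.5% lay in gene bodies and 1.02% on E2F1 peaks. Away from protein-coding TSSs only, 54.9% lay in gene bodies. With bodies of protein-coding genes alone counted, 37.1% of the members lay in one. With control regions reduced to 200 bp, chosen after the data were seen, the share was 45.0%, the width 594 bp, the distance 964 bp and the median GC content 45.7%. These alternatives change only the rule applied to the same lists, and the cause of the loss was not tested.

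The alternative that leaves out soft-masked repeats was not run, since the reference was in upper case. Leaving out regions within 1 Mb of an assembly gap moved none of the 7 values computed under it. A lost region is the absence of a call in 1 library. Fragment numbers were solved for 927 members, with a median of 5, so the counting error at the other members is unknown.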
